A study of Mus musculus with 4 samples.

Results

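The complement genes C1qa, C1qb, C1qc, C4b, C3, Itgam and C3ar1 were followed across the cell types of the mouse hippocampus. They were chosen by symbol, and all 7 were found among the 32285 genes of each of the 4 libraries. Single-nucleus RNA sequencing (snRNA-seq), which counts RNA molecules in isolated nuclei, was done on hippocampus of female C57BL/6J mice aged 8 weeks at the start of a 10-week protocol. The App NL-G-F allele (APPNL-G-F in the labels, knock-in here) replaces the mouse's own App with a humanised form carrying familial Alzheimer mutations, so no outside promoter drives it. The groups were knock-in with exercise, knock-in without exercise, wild type (WT) with exercise and WT without exercise, each with 1 library. The treatment protocol names a running wheel for every sample, but the titles and the treatment label set the groups without exercise apart, and these were followed. The labels do not say how many mice entered a library. With 1 library per group there was no test and no replicate check, and every interval below covers counting error only.

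Complement is a cascade of proteins that tags targets for removal. In its classical route C1q, built from the products of C1qa, C1qb and C1qc, binds the target, C4 and C3 are cleaved and deposited, and phagocytes take up the target through complement receptors. In brain, microglia are known as the main source of C1q, and complement is known in mouse models of amyloid deposition for its part in the removal of synapses by microglia.

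The 3 C1q genes lie side by side on the minus strand of chromosome 4 within 18675 bases (GRCm38, GENCODE M21), each with 3 exons. C1qb is at chr4:136880129-136886187, C1qc at chr4:136889804-136893065 and C1qa at chr4:136895917-136898803. C4b (chr17:34728380-34743882, minus strand, 41 exons) and C3 (chr17:57203970-57228136, minus strand, 41 exons) lie apart on chromosome 17. Itgam is at chr7:128062640-128118491 on the plus strand with up to 30 exons, and C3ar1 at chr6:122847138-122856161 on the minus strand with 2. The C1q genes, Itgam and, with as few as 1 UMI, C3ar1 were counted in microglia of every library. So the members' promoters were searched on both strands for GAGGAA, a core of sites bound by PU.1, the transcription factor of myeloid cells. RefSeq windows of 300 bases (GRCm38.p6, 250 before and 50 after the start) were at hand for 5 members, and 3 of these held the motif, as did 28.3% of all 32851 promoters. They are shown along each gene's own strand, with GAGGAA or its reverse complement TTCCTC in capitals. The windows are chr4:136886151-136886450 for C1qb, chr4:136892865-136893164 for C1qc and chr7:128062390-128062689 for Itgam.
C1qb promoter: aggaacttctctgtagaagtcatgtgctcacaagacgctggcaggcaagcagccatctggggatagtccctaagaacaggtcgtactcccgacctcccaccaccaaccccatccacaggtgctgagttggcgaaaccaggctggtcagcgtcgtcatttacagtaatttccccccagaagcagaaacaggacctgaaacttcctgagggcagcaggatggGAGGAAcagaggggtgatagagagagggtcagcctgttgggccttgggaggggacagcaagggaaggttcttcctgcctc
C1qc promoter: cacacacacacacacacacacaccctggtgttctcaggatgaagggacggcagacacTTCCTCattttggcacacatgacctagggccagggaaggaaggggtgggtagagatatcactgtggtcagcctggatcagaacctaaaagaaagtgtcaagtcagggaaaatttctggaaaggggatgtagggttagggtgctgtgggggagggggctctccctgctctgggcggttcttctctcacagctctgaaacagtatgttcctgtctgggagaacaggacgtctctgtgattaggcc
Itgam promoter: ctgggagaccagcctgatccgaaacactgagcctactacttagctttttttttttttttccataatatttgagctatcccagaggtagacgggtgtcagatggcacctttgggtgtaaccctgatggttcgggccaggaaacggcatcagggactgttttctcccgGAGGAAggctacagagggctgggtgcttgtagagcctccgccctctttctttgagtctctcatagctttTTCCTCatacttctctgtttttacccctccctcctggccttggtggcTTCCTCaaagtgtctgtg
C1qb and C1qc held 1 match each and Itgam held 3, while the windows of C3 and C3ar1 held none. A match describes these letters and is not a binding site.

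The libraries held 76111556, 64158446, 66573909 and 91676884 unique molecular identifiers (UMIs, each standing for 1 captured RNA molecule) in knock-in with exercise, knock-in without exercise, WT with exercise and WT without exercise. After filtering, 8745, 9278, 6508 and 10213 nuclei were kept in the same libraries, and pairs of libraries shared 20 to 42 barcodes. Nuclei were clustered without complement genes and named from markers that included none. The microglia were 1 cluster, and all 14 of its markers (Csf1r, P2ry12, Cx3cr1 and others) had UMIs in every library. It held 317 nuclei in knock-in with exercise, 145 in knock-in without exercise, 39 in WT with exercise and 133 in WT without exercise, with median depths of 2605, 1294, 1845 and 1665 UMIs.

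C1q was the complement component seen most clearly, and the microglia of the knock-in library without exercise had the most of it. Summed over C1qa, C1qb and C1qc, microglia gave 296 UMIs in knock-in with exercise, 339 in knock-in without exercise, 50 in WT with exercise and 192 in WT without exercise. As CPM, UMIs per 1e+06 UMIs of the class, that is 266 (95% Poisson interval 236 to 298), 1082 (970 to 1204), 253 (188 to 333) and 667 (576 to 768). The intervals of both exercised libraries overlapped each other and lay below those of both libraries without exercise. Per nucleus the sums were 0.934, 2.34, 1.28 and 1.44 UMIs in the same libraries, an order in which the WT libraries lie close together. The 39 WT nuclei with exercise averaged 5074 UMIs against a median of 1845, so a few deep nuclei supply much of that class total.

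**Figure D1:**
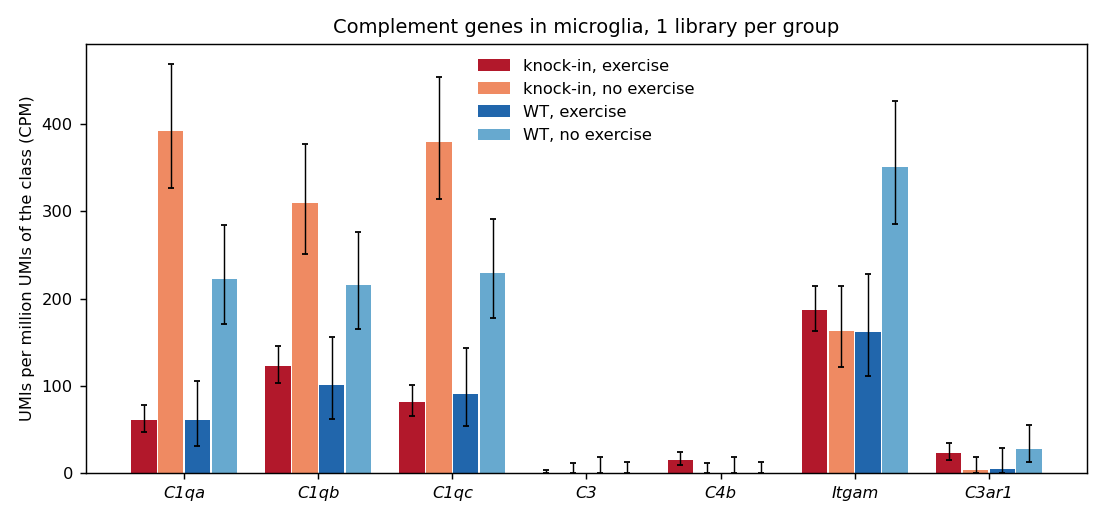
Level of each complement gene in microglia, in CPM, with 1 bar per library and its exact 95% Poisson interval. The 3 C1q genes are highest in the knock-in without exercise, Itgam is highest in WT without exercise at 351 CPM, and C3 is at 0 in all 4 libraries.

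C1qa, which encodes the A chain, stood at 61.1 CPM in knock-in with exercise, 393 in knock-in without exercise, 60.6 in WT with exercise and 222 in WT without exercise. C1qb, the B chain, stood at 123, 310, 101 and 215 CPM in the same libraries. C1qc, the C chain, stood at 81.7, 380, 91.0 and 229 CPM. All 3 chains were highest in the knock-in without exercise, next in WT without exercise, and lower in both exercised libraries.

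C1q was higher in knock-in than in WT microglia without exercise, with a log2 ratio of 0.70 (0.44 to 0.96) set against a median of -0.12 over all genes measured in the class. The single ratios were 0.82 for C1qa, 0.73 for C1qc and 0.52 for C1qb, which turned to -0.13 when nuclei had to have at least 1000 genes. With exercise the C1q ratio of knock-in to WT was 0.07 (-0.36 to 0.54). It was 1.11 when microglia were taken by marker UMIs alone and -0.65 per UMI of the class markers, and its sign was kept in 7 of 15 alternatives. A measured gene had at least 50 UMIs over both libraries, and 4 of the 7 members (C1qa, C1qb, C1qc and Itgam) met this in microglia. Without exercise 0 of these 4 were at least 2-fold higher in knock-in and 1 (Itgam) was at least 2-fold lower, where 2.3% of the 2691 genes measured were as much higher and 4.27% as much lower. With exercise 0 of the 4 passed 2-fold in either direction, against 14.7% of the 5119 genes measured higher and 1.23% lower. The C1q ratio without exercise was 0.22 under that filter, and 2.06 when microglia were taken as all nuclei with at least 5 UMIs of microglia markers.

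In microglia C1q was lower with exercise in both genotypes. In the knock-in its log2 ratio of exercise to no exercise was -2.03 (-2.25 to -1.80), with C1qa at -2.68, C1qb at -1.33 and C1qc at -2.22. The WT ratio was -1.40 (-1.88 to -0.94), with C1qa at -1.87, C1qb at -1.09 and C1qc at -1.33. All genes measured had a median of 0.14 in the knock-in and -0.19 in WT. In the knock-in 3 of 4 measured members (the C1q genes) were at least 2-fold lower and 0 were as much higher, against 5.02% and 10.1% of the 5580 genes measured. In WT all 4 measured members were at least 2-fold lower and 0 higher, against 13.4% and 8.13% of 2128 genes. The C1q ratio in WT was -0.17 when UMIs were counted per nucleus and -0.29 per UMI of the class's own markers, and under these scalings that of C1qb turned to 0.14 and 0.017. Per nucleus the knock-in ratio was -1.32. The knock-in library without exercise enters both the genotype and the exercise comparison, with opposite sign, and so does WT with exercise.

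Other RNA in the microglia class also differed between the libraries. The 14 microglia markers summed to 8018 CPM in knock-in with exercise, 7719 in knock-in without exercise, 4856 in WT with exercise and 10469 in WT without exercise. Genes of 8 neuron marker lists, 54 in all, summed to 4707, 4798, 5599 and 4394 CPM in the same libraries. Single lists differed more. The granule neuron list summed to 1814, 2947, 3310 and 2313 CPM and the inhibitory list to 1273, 795, 773 and 705 CPM. The 8 border macrophage markers (Mrc1, F13a1, Cd163 and others) summed to 391, 635, 243 and 684 CPM, an order like that of C1q with the knock-in and WT libraries without exercise on top. With all nuclei holding a border macrophage marker UMI left out, all 4 C1q ratios stayed within their counting intervals. The part of neuronal RNA and of marker depth in the C1q differences was not tested.

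C1q RNA was also found outside the microglia. Of all C1q UMIs in kept nuclei (694 in knock-in with exercise, 1229 in knock-in without exercise, 298 in WT with exercise and 544 in WT without exercise), microglia held 42.7%, 27.6%, 16.8% and 35.3%. Granule neurons of the dentate gyrus, used here for the level of free RNA, stood at 5.14, 13.1, 1.24 and 2.79 CPM. The genotype ratio there was 2.23 (1.78 to 2.70) on the log2 scale without exercise and 2.05 (1.30 to 2.89) with exercise. In oligodendrocytes C1q stood at 13.4, 45.8, 7.06 and 8.37 CPM in the same libraries, with a genotype ratio of 2.45 (1.79 to 3.17) without exercise. C1q was thus higher in the knock-in library without exercise in these classes as well as in microglia. Over all kept nuclei C1q was higher in knock-in than WT by 1.67 (1.52 to 1.82) without exercise and 1.08 (0.88 to 1.28) with exercise. Exercise over no exercise there gave -1.42 for C1qa, -0.81 for C1qb and -1.02 for C1qc in the knock-in. In WT it gave -0.76, -0.40 and -0.35 (-0.73 to 0.02 for C1qc). Granule neurons also had less C1q with exercise, at 5.14 against 13.1 CPM in the knock-in and 1.24 against 2.79 in WT. The lower C1q with exercise was thus not confined to microglia. Microglia made up 3.62%, 1.56%, 0.599% and 1.30% of the kept nuclei in knock-in with exercise, knock-in without exercise, WT with exercise and WT without exercise, and 398, 890, 248 and 352 of the C1q UMIs lay outside them.

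**Figure D2:**
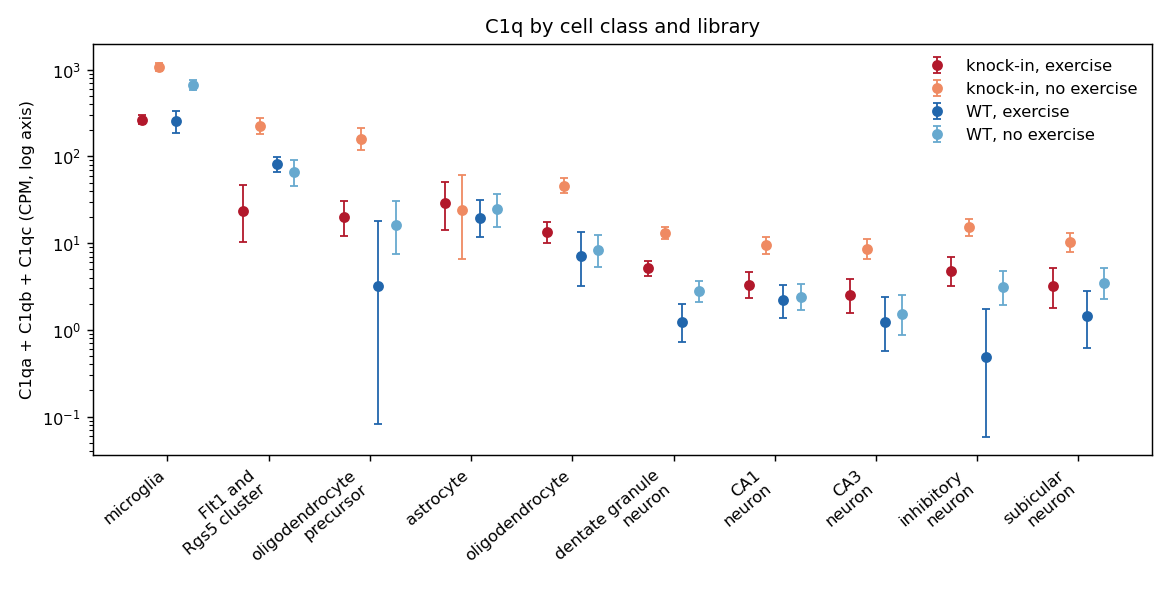
C1q (C1qa, C1qb and C1qc summed, CPM on a log axis) in 10 cell classes, with 1 point per library and its exact 95% Poisson interval; lower ends are drawn no lower than 0.05 CPM. Microglia are highest in every library, and the knock-in without exercise is highest in microglia, the Flt1 and Rgs5 cluster, both oligodendrocyte lineage classes and all 5 neuron classes, with astrocytes the exception.

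Nuclei with a C1q UMI were far more frequent in microglia than in granule neurons. At least 1 C1q UMI was seen in 59.0% of microglial nuclei in knock-in with exercise, 82.8% in knock-in without exercise, 61.5% in WT with exercise and 63.2% in WT without exercise. The granule neurons, which were deeper at medians of 6706, 4591, 6730 and 6166 UMIs, gave 3.43%, 6.03%, 0.67% and 1.80%. After each nucleus was thinned to 1500 UMIs, the microglial shares were 35.5% of 307 nuclei, 59.2% of 49, 30.8% of 26 and 57.6% of 85. At equal depth the intervals of knock-in (44.2% to 73.0%) and WT (46.4% to 68.3%) without exercise overlapped almost wholly. All 3 chains were found together in 8, 17, 2 and 11 microglial nuclei before thinning.

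Some of the C1q outside the microglia cluster lay in nuclei with many microglia markers. Among oligodendrocyte precursors, C1q stood at 19.99 CPM in knock-in with exercise, 161 in knock-in without exercise, 3.22 in WT with exercise and 16.2 in WT without exercise. Of the 49 UMIs behind the value of the knock-in without exercise, 37 came from 10 nuclei with at least 5 UMIs of microglia markers, and the level without those nuclei was 43.0 CPM. An unnamed cluster led by the endothelial gene Flt1 and the pericyte gene Rgs5 held 23.7, 226, 80.9 and 65.7 CPM of C1q. In WT with exercise 94 of its 104 C1q UMIs came from 22 such nuclei, and its border macrophage markers summed to 242 CPM. In knock-in without exercise 75 of its 96 C1q UMIs came from 11 such nuclei, and the level without them was 106 CPM. The make-up of this cluster differed between libraries: choroid plexus markers summed to 47.3 CPM in knock-in with exercise, 14167 in knock-in without exercise, 131 in WT with exercise and 439 in WT without exercise, and ependymal markers to 106, 136, 1127 and 103 CPM. Their part in its complement values was not tested. No oligodendrocyte had 5 or more UMIs of microglia markers. In granule neurons such nuclei held 2 of 102, 4 of 163, 5 of 17 and 0 of 55 C1q UMIs. These are knock-in with exercise, knock-in without exercise, WT with exercise and WT without exercise. The C1q of both classes thus lay mostly or wholly in other nuclei.

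The balance of the C1q chains differed between libraries. In microglia C1qa made up 23.0% (exact interval 18.3% to 28.2%) of C1q UMIs in knock-in with exercise, 36.3% in knock-in without exercise, 24.0% in WT with exercise and 33.3% in WT without exercise. C1qb made up 46.3%, 28.6%, 40% and 32.3% in the same libraries. Outside microglia C1qa made up 35.2%, 38.4%, 29.0% and 34.1%. In the knock-in with exercise the share of C1qa in microglia thus lay below that in its other nuclei (30.5% to 40.1%), which share the library.

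**Figure D3:**
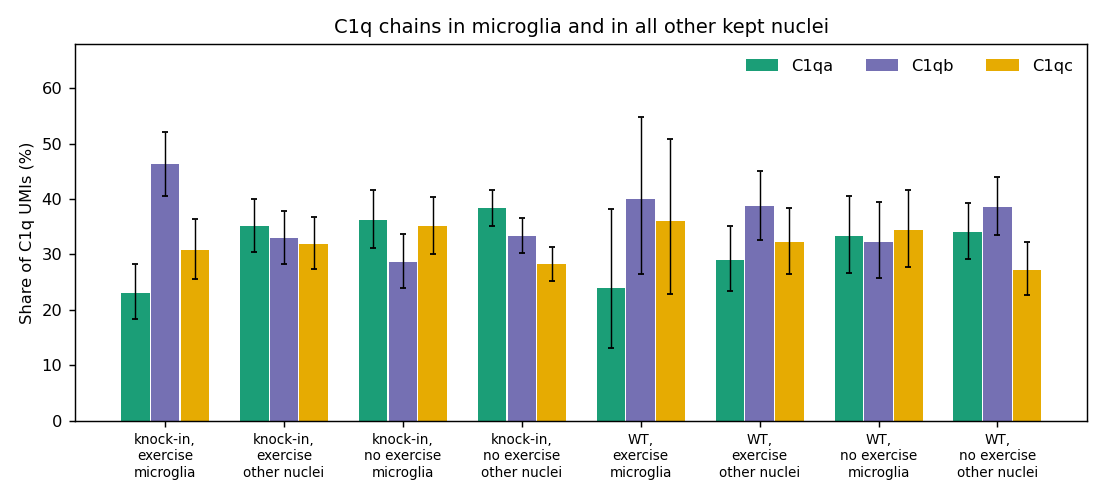
Share of C1q UMIs (%) from C1qa, C1qb and C1qc in microglia and in all other kept nuclei of each library, with exact 95% Clopper-Pearson intervals. In microglia of the knock-in with exercise C1qb makes up 46.3% and C1qa 23.0%, while the chains lie closer together in the other nuclei of that library.

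C4b encodes C4, the component cleaved next after C1q binds. In both astrocytes and oligodendrocytes it was highest in the knock-in library with exercise. In astrocytes it gave 102 UMIs in knock-in with exercise, 9 in knock-in without exercise, 44 in WT with exercise and 114 in WT without exercise. These counts correspond to 266 (217 to 323), 53.6 (24.5 to 102), 48.2 (35.0 to 64.7) and 127 (105 to 152) CPM. The knock-in with exercise lay above the other 3 libraries, and the intervals of knock-in without exercise and WT with exercise overlapped. Astrocytes were 1 cluster with 110, 66, 348 and 343 nuclei in the same libraries. C4b was detected in 51.8%, 9.09%, 10.3% and 19.0% of them, and in 28.0%, 7.84%, 6.03% and 14.9% at 1500 UMIs per nucleus. In granule neurons at their full depth it was detected in 3.14%, 0.71%, 0.31% and 0.50%.

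The genotype ratio of C4b had opposite signs with and without exercise. In astrocytes knock-in over WT was 2.46 (1.94 to 3.01) on the log2 scale with exercise and -1.24 (-2.41 to -0.27) without. Exercise over no exercise was 2.31 (1.33 to 3.48) for knock-in mice and -1.40 (-1.93 to -0.88) for WT mice. C4b was the only member measured in astrocytes in all 4 comparisons, and it passed 2-fold in each. As large a difference was shown by 5.28% of genes measured (higher, genotype with exercise), 8.44% (lower, genotype without exercise), 11% (higher, exercise in knock-in) and 0.999% (lower, exercise in WT). The astrocyte markers summed to 17506, 15333, 21710 and 23669 CPM in knock-in with exercise, knock-in without exercise, WT with exercise and WT without exercise, and per UMI of these markers the genotype ratio without exercise was -0.61.

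In oligodendrocytes C4b gave 249, 17, 18 and 71 UMIs in knock-in with exercise, knock-in without exercise, WT with exercise and WT without exercise, or 59.8 (52.6 to 67.7), 7.72 (4.50 to 12.4), 14.1 (8.37 to 22.3) and 25.8 (20.2 to 32.6) CPM. Knock-in over WT was 2.08 (1.39 to 2.86) with exercise and -1.74 (-2.60 to -0.96) without exercise on the log2 scale. Exercise over no exercise was 2.95 (2.25 to 3.76) for knock-in mice and -0.87 (-1.71 to -0.11) for WT mice. The first 3 passed 2-fold, where 11.1%, 3.05% and 12.2% of genes measured did so in the same direction, while 1.76% of genes were at least 2-fold lower with exercise in WT. Per nucleus the ratio of exercise to no exercise in the knock-in was 3.95. The class was split by library. One cluster held 99.2% of the oligodendrocytes of knock-in with exercise, another 96.1% of those of knock-in without exercise, and a further one 88.3% and 91.7% of those of WT with and without exercise. Neurons of knock-in with exercise stood apart as well. A single cluster held 2655 of its 2739 granule neurons, and another held 946 of its 1030 CA1 neurons. The granule neurons used for the level of free RNA were thus split by library too.

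**Figure D4:**
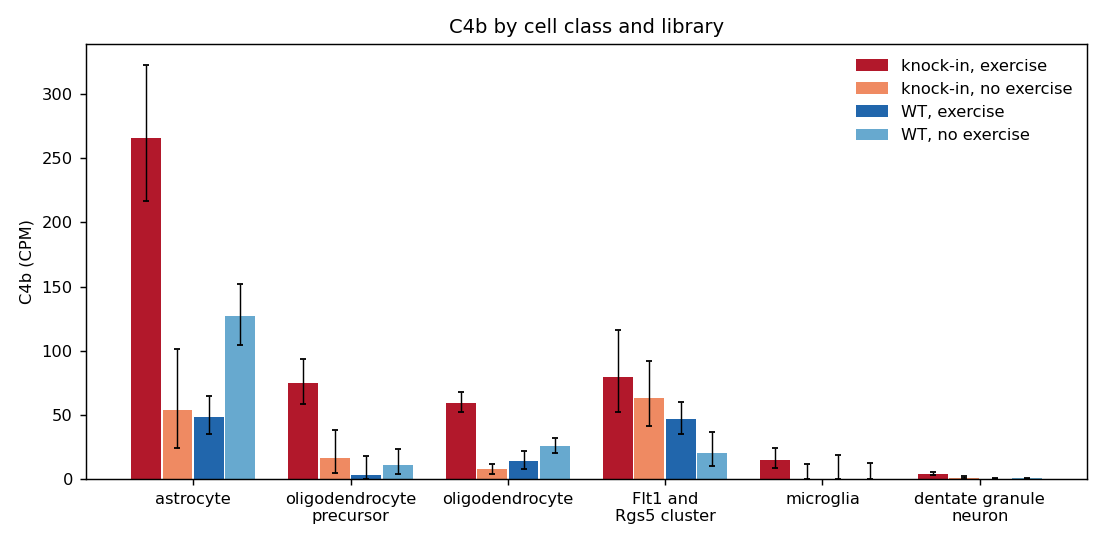
C4b (CPM) in 6 cell classes, with 1 bar per library and its exact 95% Poisson interval. The knock-in with exercise is highest in astrocytes (266 CPM), both oligodendrocyte lineage classes, microglia and granule neurons, and in the Flt1 and Rgs5 cluster its interval overlaps that of the knock-in without exercise.

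Further classes had C4b in the knock-in with exercise. Oligodendrocyte precursors stood at 74.97 CPM in knock-in with exercise, 16.4 in knock-in without exercise, 3.22 in WT with exercise and 10.8 in WT without exercise, from 75, 5, 1 and 6 UMIs. The genotype ratio with exercise was 4.54 (2.02 to 9.86) on the log2 scale, a wide interval because the WT library held 1 UMI. Granule neurons, as the level of free RNA, stood at 4.44, 1.44, 0.44 and 0.76 CPM, and their genotype ratio was 3.34 (2.16 to 4.83) with exercise and 0.92 (-0.15 to 2.02) without. The Flt1 and Rgs5 cluster, whose make-up differed between libraries as given above, stood at 79.8, 63.4, 46.6 and 20.7 CPM, and held 37.5% of all C4b UMIs of WT with exercise. Microglia had 17 UMIs in the knock-in with exercise and 0 in the other 3 libraries, where 3 counts would be 9.58, 15.2 and 10.4 CPM. Microglial C4b in the knock-in with exercise was 1.59-fold the 3-count floor of the knock-in without exercise. That fold leaves out the counting error of the 17 UMIs. With the granule neuron level subtracted, the 8 C4b ratios in astrocytes and oligodendrocytes kept their signs and stayed within their counting intervals. The subtracted levels lay well below those of both classes, so no sign could have turned. Granule neuron nuclei were also deeper, so their level need not be that of free RNA in these classes, and its part was not tested.

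C4a, a near-identical copy 65210 bases from C4b, was counted in other cells. It gave 68, 14, 62 and 190 UMIs over all kept nuclei in knock-in with exercise, knock-in without exercise, WT with exercise and WT without exercise, mostly in neurons. In astrocytes it gave 1, 0, 1 and 0 UMIs and in oligodendrocytes 4, 0, 0 and 1. How reads matching both copies were counted is not stated in any source used here, so C4b is uncertain to that extent.

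**Figure D5:**
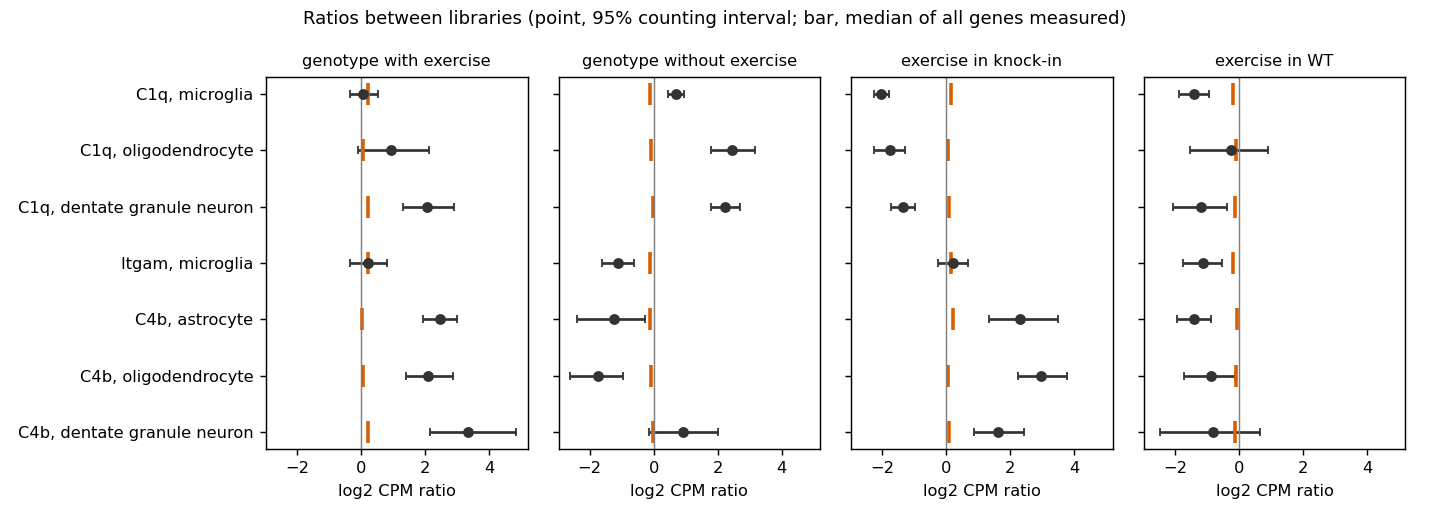
Log2 ratios of CPM between libraries (points) with exact 95% counting intervals for C1q, Itgam and C4b in selected classes, beside the median of all genes measured in that class (orange bars); genotype is knock-in over WT and exercise is exercise over no exercise. C4b in astrocytes and oligodendrocytes lies right of 0 for genotype with exercise and exercise in the knock-in and left of 0 for the other comparisons, and C1q in microglia lies left of 0 for both exercise comparisons.

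C3, the central component on which all routes converge, was close to absent from these nuclei. It gave 4 UMIs in knock-in with exercise, 9 in knock-in without exercise, 16 in WT with exercise and 5 in WT without exercise over all kept nuclei. Microglia held 0 in each library, which allows up to 2.69, 9.58, 15.2 and 10.4 CPM. Astrocytes, known as a source of C3 when reactive, held 0, 0, 2 and 3 UMIs. The Flt1 and Rgs5 cluster held 1, 7, 11 and 0, so it supplied most of the C3 UMIs of knock-in without exercise, where it also held the most choroid plexus markers, and of WT with exercise, where it held the most ependymal markers.

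Itgam encodes the alpha subunit of complement receptor 3, with which microglia bind C3 fragments on a target. Its microglial level was highest in WT without exercise, unlike that of C1q. It gave 208, 51, 32 and 101 UMIs in knock-in with exercise, knock-in without exercise, WT with exercise and WT without exercise, or 187 (162 to 214), 163 (121 to 214), 162 (111 to 228) and 351 (286 to 426) CPM. The first 3 libraries overlapped one another and all lay below WT without exercise. Knock-in over WT was -1.11 (-1.62 to -0.61) on the log2 scale without exercise and 0.21 (-0.33 to 0.79) with exercise. Exercise over no exercise was 0.20 (-0.25 to 0.67) for knock-in mice and -1.12 (-1.74 to -0.53) for WT mice. The lower level in the knock-in without exercise turned to 0.40 when microglia were taken by marker UMIs alone, and the lower level with exercise in WT turned to 0.11 per nucleus. The genotype ratio with exercise was 2.30 by marker UMIs alone and -0.52 per UMI of the class markers, and the exercise ratio in the knock-in was 0.98 after thinning to 1500 UMIs, 0.90 per nucleus and 0.83 with at least 1000 genes per nucleus. Microglia held 69.1%, 56.0%, 45.7% and 61.2% of all Itgam UMIs in the same libraries, and granule neurons stood at 0.706, 0.401, 0.073 and 0.406 CPM. GENCODE M21 places Gm49368 over Itgam on the same strand, and that gene is not among those counted in the files.

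C3ar1, the receptor for the C3a fragment, was sparse. Microglia gave 26 UMIs in knock-in with exercise, 1 in knock-in without exercise, 1 in WT with exercise and 8 in WT without exercise, or 23.4 (15.3 to 34.2), 3.19 (0.081 to 17.8), 5.05 (0.13 to 28.2) and 27.8 (11.997 to 54.8) CPM. The knock-in with exercise and WT without exercise were highest, and the intervals of all 4 libraries overlapped. Exercise over no exercise in the knock-in was 2.87 (0.27 to 8.23) on the log2 scale, and knock-in over WT without exercise was -3.12 (-8.59 to -0.22), each resting on 1 UMI in the knock-in library without exercise. Over all kept nuclei C3ar1 gave 46, 23, 17 and 39 UMIs, of which microglia held 56.5%, 4.35%, 5.88% and 20.5%.

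The 9 plaque-response genes of microglia did not share 1 order of libraries. Itgax, the alpha subunit of complement receptor 4, gave 41 UMIs in knock-in with exercise, 2 in knock-in without exercise, 0 in WT with exercise and 0 in WT without exercise. Axl, a receptor for dying cells, stood at 64.7, 12.8, 0 and 6.95 CPM in the same libraries. Both had intervals above 0 for exercise over no exercise in the knock-in, at log2 ratios of 2.53 (0.58 to 5.62) and 2.34 (0.92 to 4.25), where C1q was lower. Csf1, a growth factor of microglia, stood at 80.8, 57.5, 5.05 and 6.95 CPM, Lpl, a lipase, at 60.2, 47.9, 20.2 and 3.47 CPM, and Cd9, a tetraspanin, at 204, 176, 35.4 and 79.9 CPM. These 3 were higher in both knock-in libraries than in both WT libraries, and their exercise ratios in the knock-in had intervals that included 0. Their WT levels rest on few UMIs: in WT with and without exercise Csf1 gave 1 and 2, Lpl 4 and 1, and Cd9 7 and 23. Apoe, the lipid carrier, had the order of C1q with 158, 903, 75.8 and 264 CPM. Trem2, a lipid receptor, stood at 113, 163, 25.3 and 108 CPM, and Tyrobp, its signalling partner, at 43.1, 83.0, 25.3 and 34.7 CPM. Cst7, a protease inhibitor, gave 11, 5, 1 and 0 UMIs.

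The wider complement list held 53 further genes. In microglia 12, 9, 12 and 7 of these were measured for genotype with exercise, genotype without exercise, exercise in the knock-in and exercise in WT. At least 2-fold higher were 2 (Sez6 and Calr), 0, 2 (Sez6 and Sez6l) and 0, beside 14.7%, 2.3%, 10.1% and 8.13% of all genes measured. At least 2-fold lower were 0, 0, 0 and 1, beside 1.23%, 4.27%, 5.02% and 13.4%. For genotype with exercise Sez6 and Calr rest on 4 UMIs each in WT, and the interval of Calr (-0.04 to 3.31) includes 0. Their median log2 ratios were 0.07, -0.12, 0.35 and -0.06, beside 0.21, -0.12, 0.14 and -0.19 for all genes measured. Calr, a chaperone that also binds C1q at the cell surface, stood at 53.0 CPM in knock-in with exercise, 102 in knock-in without exercise, 20.2 in WT with exercise and 62.5 in WT without exercise.

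Regulators of the cascade were measured in astrocytes and oligodendrocytes too. Clu, or clusterin, which blocks the terminal complex, stood at 490 CPM in knock-in with exercise, 1102 in knock-in without exercise, 445 in WT with exercise and 876 in WT without exercise in astrocytes. In oligodendrocytes it stood at 17.3, 45.4, 45.5 and 30.9 CPM, lowest in the library where C4b was highest. Csmd1, a membrane protein of neurons that opposes C4 and C3 in the classical route, stood at 2259.8, 385, 534 and 998 CPM in oligodendrocytes, and Susd4, a related regulator, at 82.1, 19.1, 25.9 and 40.04 CPM. Both had the same order of libraries as C4b in that class, but both were higher in granule neurons in every library. There Csmd1 stood at 5935, 4899, 6367 and 5939 CPM in the same libraries. Susd4 stood at 389, 199, 268 and 279 CPM in granule neurons, again in the order of C4b in oligodendrocytes. Of the 53 genes 15, 15, 15 and 14 were measured in oligodendrocytes for genotype with exercise, genotype without exercise, exercise in the knock-in and exercise in WT. At least 2-fold higher were 6, 1, 4 and 0 of them, beside 11.1%, 5.28%, 12.2% and 0.266% of all genes measured in the class. At least 2-fold lower were 1, 2, 2 and 2, beside 4.45%, 3.05%, 13.8% and 1.76%. The medians were 0.51, -0.22, 0.46 and -0.39, beside 0.07, -0.10, 0.06 and -0.10 for all genes measured. The 54 neuron markers in oligodendrocytes summed to 7541, 5739, 7729 and 7717 CPM in knock-in with exercise, knock-in without exercise, WT with exercise and WT without exercise. In granule neurons the same sum was 7281, 7260, 7662 and 7715 CPM, so it is no gauge of neuronal RNA in oligodendrocytes. Single lists differed in order there. The CA3 list (801, 494, 600 and 681 CPM) and the inhibitory list (2247, 1617, 2094 and 2225 CPM) had the order of C4b. The granule neuron list (3880, 3183, 4679 and 4351 CPM) did not. The part of neuronal RNA in these regulators was not tested.

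The genes whose levels ran most like C1q, C4b, C3ar1 and C3 were taken over 48 sums of class by library, which share libraries and depth, as a description. For C1q these were Ctss (Pearson r = 0.92), Tyrobp (0.92), Olfml3 (0.90), Fcrls (0.89) and Csf1r (0.88), among 15735 genes compared. For C4b they were Sorbs3 (0.88), Rftn2 (0.88), Itih3 (0.86), Tcf7l1 (0.85) and Gramd3 (0.84). For C3ar1 they were Gcnt1 (0.84), Cd300c2 (0.81), Irf5 (0.81), Cd33 (0.80) and Tmem119 (0.80). Ctss, Csf1r and Tmem119 are among the markers that named the microglia, so their place here was in part built in. For C3, with its few UMIs, they were Clic6 (0.84), Aldh1a2 (0.81), Bgn (0.79), Col4a6 (0.79) and Myoc (0.78).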

How the data were processed

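The labels' protocols give frozen hippocampus, extraction of nuclei and the 10x Chromium 3' v3.1 kit. The authors deposited raw counts, that is UMIs of each gene in each barcode, which had not been normalized. Cell Ranger is named as 5.0.1 in the headers of the matrices and as 3.1.0, with build mm10, in the submitters' processing notes. The use of intron reads and of strand in counting is not given in the sources used. Of 32285 gene identifiers, 32158 matched GENCODE M21.

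Nuclei with 500 or more genes, 1000 or more UMIs and less than 5% mitochondrial UMIs were kept. A doublet score, from 2 simulated pairs per nucleus, was used to leave out the top 0.8% per 1000 nuclei of each library (716 in knock-in with exercise, 815 in knock-in without exercise, 379 in WT with exercise and 1007 in WT without exercise). Only 61.8%, 63.2%, 44.0% and 67.6% of simulated pairs reached that score, so doublets remain. After scaling to 10000 per nucleus, 2000 variable genes (none of the 60 complement-list genes) gave 30 principal components, 15 neighbours and 34 Leiden clusters at resolution 1.0 (scanpy 1.11.5), with libraries not integrated. Clusters were named from 23 marker lists, and 11 stayed unnamed. A class name means that nuclei are like that type.

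The UMIs of each class were added up within a library and given per 1e+06 UMIs (CPM), with exact 95% Poisson intervals for sums, conditional binomial intervals for ratios and Clopper-Pearson intervals for shares. The floor for 0 counts is 3 UMIs. The ratio code was tested on simulated counts. A gene was measured with at least 50 UMIs over both libraries. Named genes are the 7 members, wider-list genes with at least 50 UMIs in the class, plaque-response genes, and the 5 most correlated genes (on log2(CPM + 1), genes with at least 200 UMIs, sums of at least 30 nuclei). Of the wider list, 1 gene is counted but not reported here by itself. The members and lists were chosen with earlier results of these data known. Alternatives covered clustering, filters, depth, scaling, free RNA and the choice of microglia; 13 were planned and 2 were added after seeing the data.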

Additional observations from a re-analysis of the deposited data

Results flagged for a closer look

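C4b differed in direction between the genotypes and between the exercise states in both astrocytes and oligodendrocytes, and with 1 library per group the difference was not tested. In astrocytes the log2 ratio of knock-in to WT was 2.46 with exercise and -1.24 without exercise, and that of exercise to no exercise was 2.31 in the knock-in and -1.40 in WT. In oligodendrocytes the log2 ratio of knock-in to WT was 2.08 with exercise and -1.74 without exercise, and that of exercise to no exercise was 2.95 in the knock-in and -0.87 in WT. The knock-in library with exercise had the highest C4b in both classes, and the 4 ratios of a class are made from the same 4 libraries.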

How the results depend on the processing

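No paired analysis was possible because each group had 1 library and the labels give no shared replicate numbers. Each result was recomputed under up to 15 alternatives. All values here are log2 ratios. C1q in microglia kept its sign in 15 of 15 for genotype without exercise (0.22 to 2.06), for exercise in the knock-in (-2.19 to -1.32) and in WT (-1.79 to -0.17), but in 7 of 15 for genotype with exercise (-0.65 to 1.11). The 8 C4b ratios kept their signs in 13 of 13.

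Several settings moved a value out of its counting interval. With no doublets left out C1q was 1.19 for genotype without exercise, and in WT exercise gave -0.86. With at least 1000 genes per nucleus it was 0.22 for genotype without exercise (C1qb turned to -0.13) and -1.52 for exercise in the knock-in. Thinned to 1500 UMIs, C1q was -0.39 for genotype with exercise and -0.88 for exercise in WT. Per nucleus, C1q was -0.46 for genotype with exercise, -0.17 for exercise in WT and -1.32 for exercise in the knock-in, C4b in oligodendrocytes was 3.95 for exercise in the knock-in, and exercise in WT turned to 0.14 for C1qb and 0.11 for Itgam. With microglia taken as nuclei with at least 5 UMIs of their markers, C1q was 1.11 for genotype with exercise, 2.06 for genotype without exercise (Itgam turned to 0.40), -1.77 for exercise in the knock-in and -0.82 in WT. Per UMI of the class markers, C1q was -0.65 for genotype with exercise and 1.14 without, and -0.29 for exercise in WT, where C1qb turned to 0.017. The cause was not tested. Depth limits C3, C3ar1 and microglial C4b, and the 39 microglial nuclei of WT with exercise limit both comparisons that use them.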
